A study of Mus musculus with 20 samples.

Results

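Basal keratinocytes are anchored to the dermis by hemidesmosomes, in which the integrin α6β4 (genes Itga6 and Itgb4) and collagen XVII (Col17a1) span the membrane and bind laminin-332 in the basement membrane, while anchoring fibrils of collagen VII (Col7a1) tie the basement membrane to the dermis. Lama3 and Lamb3 encode the α3 and β3 chains of laminin-332. The integrins α3β1 (Itga3 with Itgb1), a second laminin-332 receptor, and α5β1 (Itga5 with Itgb1), a fibronectin receptor, act in cell migration, and inherited loss of hemidesmosome, laminin-332 or collagen VII components causes blistering of the skin. The 9 genes Itga6, Itgb4, Itga3, Itgb1, Itga5, Lama3, Lamb3, Col17a1 and Col7a1 were taken by name from the table of 22090 genes, by a rule that uses no measured value, although they were chosen with earlier results of these data known. All 9 passed the filter on low counts in each comparison.

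The tissues were 8 normal skins (NS), 8 actinic keratoses (AK, the precancerous lesion) and 4 cutaneous squamous cell carcinomas (cSCC) from female Hairless SKH-1 mice, for which the labels give an age of 7 months. Of the 8 mice, 4 were never irradiated and gave 1 NS each, and the 4 mice under ultraviolet radiation (UVR) gave NS, AK and cSCC. The labels show neither which NS were irradiated nor which tissues shared a mouse, so NS were 1 group, the 8 AK stood for 4 mice, and p-values that treat tissues as independent may be too small. Each sample is named by its group and label number, so the NS are 1, 2 and 4 to 9, the AK 10 to 17 and the cSCC 18 to 21. Levels are given as CPM, counts divided by library size and TMM factor. A gene was called when edgeR's quasi-likelihood test gave a Benjamini-Hochberg adjusted p-value under 0.05 over all genes tested and the fold change was above 1.5 or below 0.67.

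Several libraries stood apart. Total counts ranged from 1624325 to 6295575 in NS, from 867219 (AK 12) to 14055206 in AK and from 775750 (cSCC 20) to 7095102 in cSCC. The summed level of 8 heart muscle markers was 58246 CPM in cSCC 21 against at most 45.7 CPM in NS, and that of 6 lung epithelium markers was 35644 CPM in cSCC 20 against at most 32.9 CPM in NS, although the labels name skin. Haemoglobin genes took 46.8% of the counts of cSCC 18. The summed basal keratinocyte markers (Krt5, Krt14, Krt15, Trp63 and Dlk2), the cells that make hemidesmosomes, were present in every library, at 5001 to 15325 CPM in NS, 8708 to 13300 CPM in AK and 3726 to 17189 CPM in cSCC. In bulk tissue, fewer cells of a type and less RNA per cell cannot be told apart. Results that rest on cSCC 19, 20 or 21 are therefore given with and without them.

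RefSeq promoter windows (GRCm38.p6, the 250 bases before the start) were held for 6 of the 9 genes. The windows of Itga3, Itgb1, Itga5 and Lamb3 are shown because these genes were called in cSCC, and that of Col17a1 because it had the highest level per kb of the 9 genes in NS and was not called. They lie at chr11:95076715-95076964 (minus strand, Itga3), chr8:128685404-128685653 (plus strand, Itgb1), chr15:103366792-103367041 (minus strand, Itga5), chr1:193301744-193301993 (plus strand, Lamb3) and chr19:47692043-47692292 (minus strand, Col17a1). RefSeq held a further start for Itga3 and for Lamb3, and the first entry of each is printed. Each is written 5′ to 3′ on the strand of the gene, and capitals mark GGGCGG, the GC box, on either strand.
Itga3: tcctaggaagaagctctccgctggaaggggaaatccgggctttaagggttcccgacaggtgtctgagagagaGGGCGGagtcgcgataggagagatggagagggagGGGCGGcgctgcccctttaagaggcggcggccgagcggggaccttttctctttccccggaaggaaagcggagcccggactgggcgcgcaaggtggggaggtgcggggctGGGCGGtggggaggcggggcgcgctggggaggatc
Itgb1: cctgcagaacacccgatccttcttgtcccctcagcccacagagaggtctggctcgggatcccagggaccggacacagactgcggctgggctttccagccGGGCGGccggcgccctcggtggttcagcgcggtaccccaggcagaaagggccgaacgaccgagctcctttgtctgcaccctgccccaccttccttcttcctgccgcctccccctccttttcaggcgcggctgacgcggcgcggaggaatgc
Itga5: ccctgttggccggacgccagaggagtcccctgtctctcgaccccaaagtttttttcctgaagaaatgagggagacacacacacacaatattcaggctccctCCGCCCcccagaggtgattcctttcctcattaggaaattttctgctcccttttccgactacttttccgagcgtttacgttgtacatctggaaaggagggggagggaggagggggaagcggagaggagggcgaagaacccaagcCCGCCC
Lamb3: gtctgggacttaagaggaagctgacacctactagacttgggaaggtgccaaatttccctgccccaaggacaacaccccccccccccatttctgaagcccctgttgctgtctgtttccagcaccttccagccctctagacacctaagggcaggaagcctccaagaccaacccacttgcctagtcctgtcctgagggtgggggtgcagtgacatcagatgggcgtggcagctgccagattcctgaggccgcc
Col17a1: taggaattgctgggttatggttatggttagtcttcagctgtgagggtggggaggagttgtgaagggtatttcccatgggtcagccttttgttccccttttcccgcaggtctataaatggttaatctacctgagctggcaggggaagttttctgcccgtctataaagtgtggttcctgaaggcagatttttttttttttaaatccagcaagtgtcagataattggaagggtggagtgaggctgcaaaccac
The window of Itga3 held 3 GC boxes, that of Itga5 held 2 and that of Itgb1 held 1, whereas those of Lamb3 and Col17a1 held 0. The window of Col7a1, which was also not called, is not printed and held 1, at 56.4% G and C. The window of the other Itga3 start, at chr11:95069199-95069448, held 1 at 50.8% G and C, and that of the other Lamb3 start, at chr1:193301993-193302242, held 0. Of all 32851 RefSeq windows of this length, 32.7% held GGGCGG. The Col17a1 window held TATAAA 2 times, a motif of 12.4% of all windows, and was the poorest in G and C of the 5 printed, at 46% against 67.6% for Itga3. The AP-1 motif TGANTCA, found on either strand in 6.75% of all windows, was absent from all of these windows, which says only that these letters do not occur there. A match of letters is a description, not a binding site.

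In NS, the 9 genes spanned a wide range of levels per kb of exon. Col17a1 led with 65.0 ± 23.1 CPM per kb (SD, n = 8), followed by Itgb1 with 45.4 ± 13.8 and Itga6 with 26.6 ± 12.04. The next 5, Lamb3, Itgb4, Col7a1, Lama3 and Itga3, lay between 6.63 and 2.08 CPM per kb, and Itga5 was lowest at 0.763 ± 0.435. Neighbours in this order were not all separate, as Col17a1 exceeded Itgb1 in 6 of the 8 NS and Col7a1 exceeded Lama3 in 4, while Itga6 exceeded Lamb3 in all 8. In both AK and cSCC the first gene was Itgb1, with 75.4 ± 34.9 and 139 ± 63.3 CPM per kb. Itgb1 exceeded Col17a1 in 4 of the 8 AK and in all 4 cSCC.

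**Figure D1:**
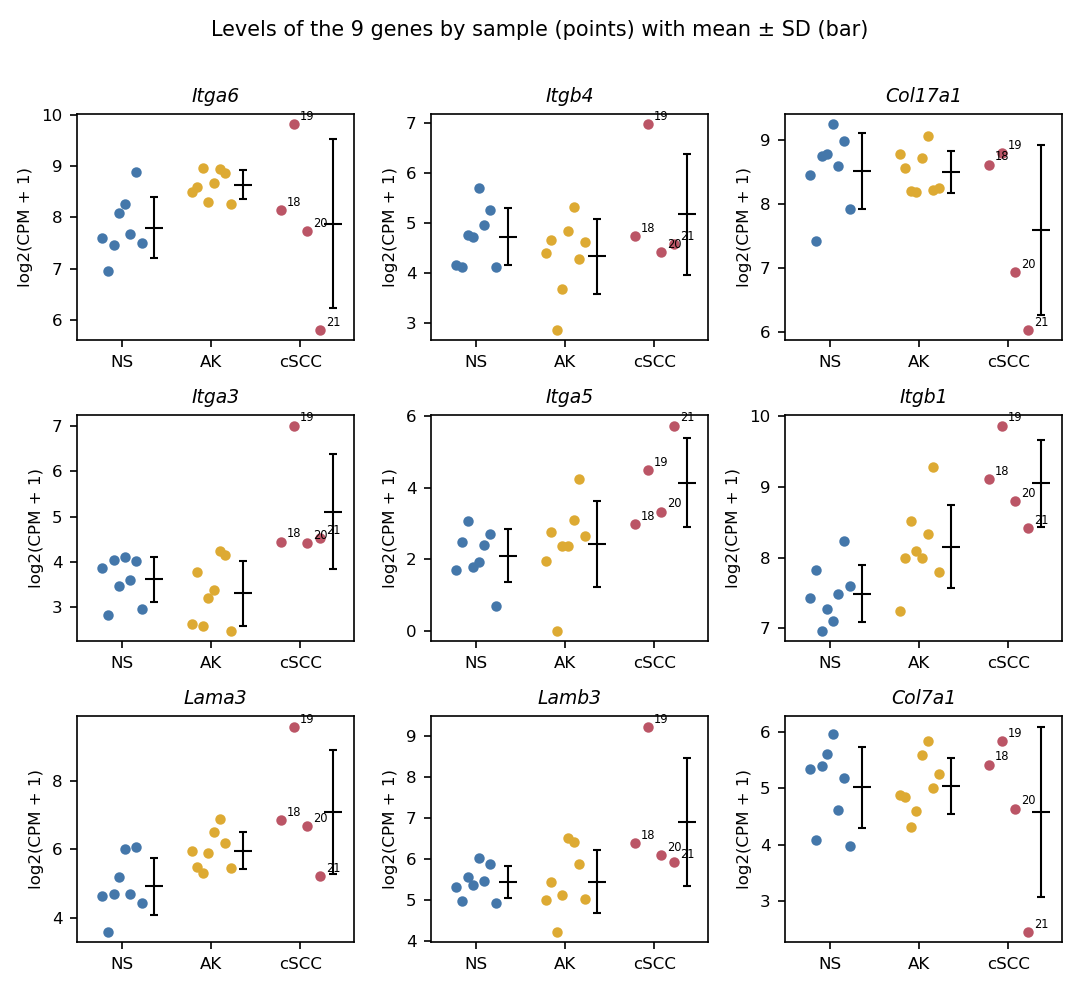
Level of each of the 9 genes in each of 8 NS, 8 AK and 4 cSCC, as log2(CPM + 1) on the vertical axis of each panel, with the cSCC points numbered and bars for the mean ± SD of these log2 values. The point of cSCC 19 is the highest cSCC value for every gene except Itga5, whose highest is cSCC 21 at 52.3 CPM.

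None of the 9 genes was called between AK and NS, where 4.64% of 11677 genes were called in either direction (2.26% higher and 2.38% lower in AK). The AK and NS ranges of all 9 overlapped, whereas 0.394% of all genes had every AK above every NS and 0.128% had every AK below. By edgeR, 3 of the 9 had an unadjusted p-value under 0.05, all with higher means in AK, and they were Itga6, Itgb1 and Lama3. With the fold change limit also applied, 1798 of all 11677 genes had such a p-value, these 3 among them. The level of Itga6 ran from 124 CPM through a median of 198 to 469 in NS and from 307 through 398 to 501 in AK. Every AK was above the NS mean of 240.2 CPM, but only 2 of the 8 exceeded the highest NS. Its log2 fold change was 0.74 (SE 0.22, adjusted p = 0.0552 by edgeR). Lama3, the α3 chain of laminin-332, ran from 11.01 through 24.98 to 65.8 CPM in NS and from 39.1 through 60.1 to 118 in AK. Again all 8 AK exceeded the NS mean of 33.9 CPM, and the log2 fold change was 0.97 (SE 0.32, adjusted p = 0.0767 by edgeR). Itgb1, the β chain shared by α3β1 and α5β1, ran from 124 through 175 to 300.5 CPM in NS and from 151 through 263 to 622 in AK, with a log2 fold change of 0.72 (SE 0.24, adjusted p = 0.0823 by edgeR). These 3 were called by DESeq2 and by limma voom, by which 1049 and 1043 of all genes were called in place of 542, and by edgeR with NS 8 left out. In the edgeR fit over all 20 samples none of them was called, where only 9 of 12847 genes were. Their adjusted p-values by edgeR there were 0.334 for Itga6, 0.332 for Lama3 and 0.209 for Itgb1.

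The other 6 genes had log2 fold changes from -0.33 (Itgb4) to 0.67 (Itga5) between AK and NS. Itgb4, the partner of Itga6, ran from 16.5 through 25.9 to 51.3 CPM in NS and from 6.31 through 22.1 to 39.0 in AK, where the lowest value was AK 12 with 5 counts. Col17a1 had nearly equal means, 390.4 ± 139 CPM in NS and 369 ± 89.0 in AK (SD, n = 8 each), as did Col7a1 with 34.7 ± 15.99 and 33.6 ± 12.4.

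Because α and β chains pair, the levels of partners were also compared inside each library, as log2 of the ratio of CPM + 1, with exact permutation tests adjusted over 30 tests (10 ratios in 3 comparisons). The ratio of Itga6 to Itgb4 was 3.07 ± 0.41 on the log2 scale in NS and 4.30 ± 0.82 in AK (SD, n = 8 each). All 8 AK lay above the highest NS, 3.61, and the lowest AK was 3.63, so the groups did not overlap, though by a narrow margin. The difference of 1.23 gave an adjusted exact permutation p = 0.00233, from a raw p of 0.000155 that is the smallest 12870 splits can give, and was 0.97 without AK 12. The ratio of Itgb4 to Krt14, the main basal keratin, was lower in AK by a log2 difference of -0.92 (adjusted exact permutation p = 0.00932, n = 8 each). Between the laminin chains, Lamb3 against Lama3 was lower in AK by -1.04 (adjusted exact permutation p = 0.00777, n = 8 each). The ratio of Itga3 to Itgb1 was lower in AK by -0.98 (adjusted exact permutation p = 0.0378, n = 8 each), and this one was lost without AK 12, 13, 16 or 17, NS 1, 4, 5, 6 or 7, or cSCC 21. The ratios of Itga5 to Itgb1 and to Itgb4 passed in no comparison. The largest of these differences was that of Itga5 to Itgb4, higher in cSCC than in NS by 1.59 (adjusted exact permutation p = 0.0699).

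**Figure D2:**
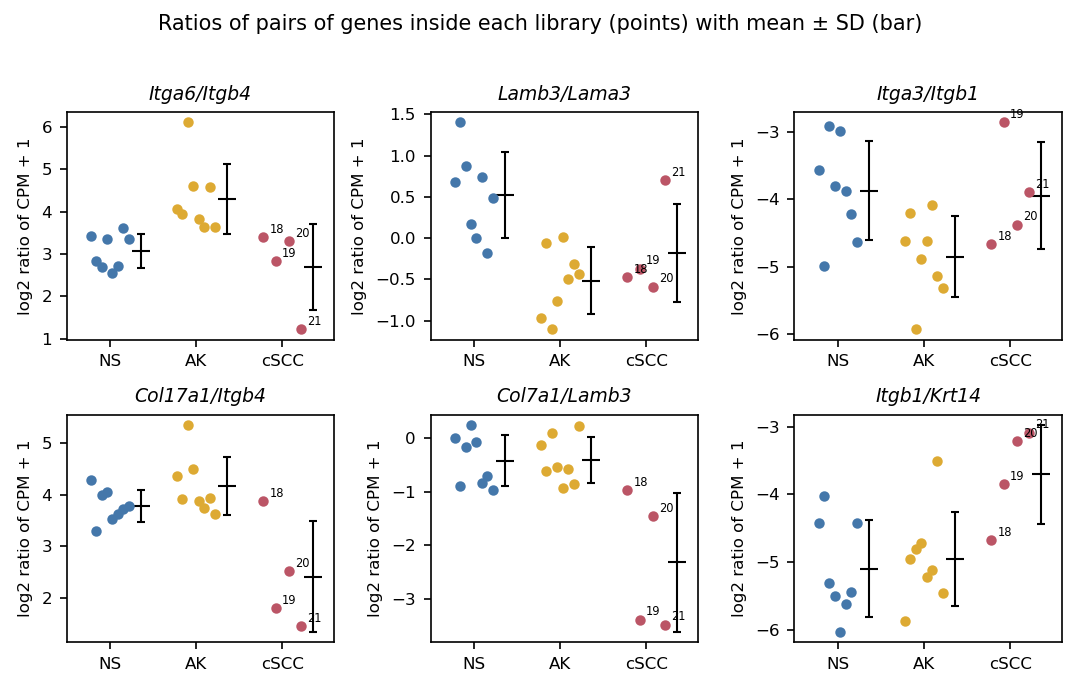
Ratios of 6 gene pairs in each library, as log2 of the ratio of CPM + 1 on the vertical axes, for 8 NS, 8 AK and 4 cSCC with bars for the mean ± SD. In these values, not corrected for GC content, Itga6 to Itgb4 is higher in all 8 AK than in any NS, and Col7a1 to Lamb3 is below every NS and AK in all 4 cSCC.

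The content of G and C in transcripts moved with these comparisons. Between AK and NS the median log2 fold change of all genes tested ran from 0.21 for transcripts under 42% GC to -0.43 for those over 57%, and between cSCC and AK from -0.36 to 0.86. The 9 genes span 44.8% (Itgb1) to 61.6% (Col7a1), with Itga6 at 48.9% and Itgb4 at 60.0%. Removing a smooth GC trend from each library left the ratio of Itga6 to Itgb4 higher in AK by 0.71 (adjusted exact permutation p = 0.0226), and those of Lamb3 to Lama3 and Itgb4 to Krt14 lower by -0.87 and -0.78 (both 0.0202). The AK and NS ranges of Itga6 to Itgb4 then overlapped, with a lowest AK of 3.34 and a highest NS of 3.70. The ratio of Itga3 to Itgb1 then differed by -0.42 (adjusted exact permutation p = 0.266). Under the same offset edgeR called 247 genes between AK and NS in place of 542, none of the 9 among them. With the offset, the log2 fold changes of Itgb4, Itga3, Col17a1 and Col7a1 turned from below 0 to 0.11, 0.15, 0.25 and 0.49, none of them called.

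**Figure D3:**
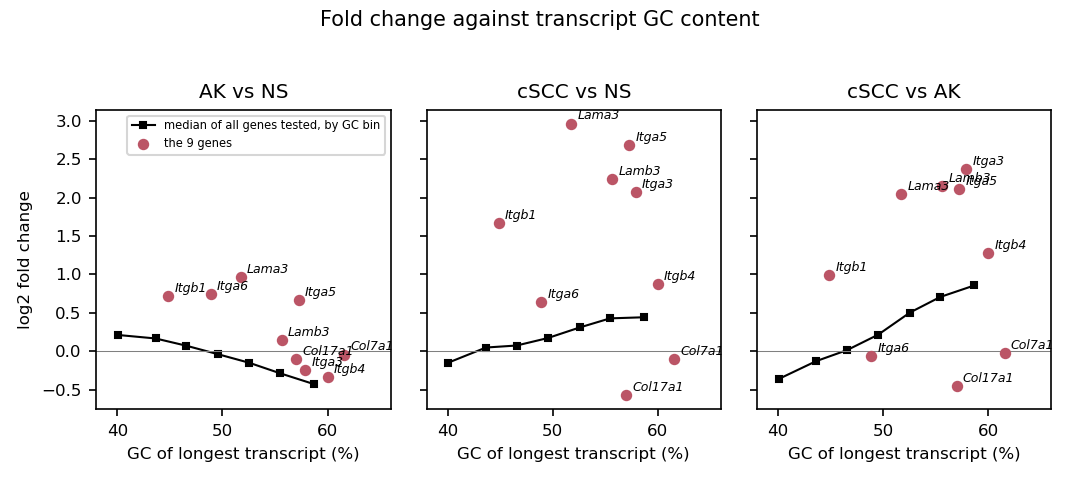
Log2 fold change (vertical axis) against the GC content of the longest transcript (horizontal axis, percent), with black squares for the median of all genes tested in each of 7 GC bins and red points for the 9 genes. In AK vs. NS the squares fall from 0.21 to -0.43, and in cSCC vs. AK they climb from -0.36 to 0.86.

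Between cSCC and NS, 5 of the 9 genes were called, all higher in cSCC, where 11.7% of 12097 genes were called higher and 7.65% lower. The median log2 fold change of the 9 genes was 1.67, against 0.14 over all genes tested, and that of the 9 was 0.73 without cSCC 19. The 5 were the laminin chains Lama3 and Lamb3 and the receptor chains Itga3, Itga5 and Itgb1. The hemidesmosome genes Itga6, Itgb4 and Col17a1 and the anchoring fibril gene Col7a1 were not called. AK vs. NS and cSCC vs. NS share the NS samples, so the values of both are set side by side with no test of their likeness. The tissue makeup also differed, as the summed suprabasal keratinocyte markers were 9624 to 30894 CPM in NS, 6152 to 19786 in AK and 686 to 10003 in cSCC, and their part in the results was not tested.

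Itgb1 was 185 ± 56.3 CPM in NS (SD, n = 8) and 552, 934, 445 and 343 CPM in cSCC 18, 19, 20 and 21. All 4 cSCC lay above the highest NS of 300.5 CPM, a separation seen for 2.70% of all genes tested. Its log2 fold change was 1.67 (SE 0.30, adjusted p = 0.00321 by edgeR), and it was called in all 24 alternatives, with 1.32 (adjusted p = 0.0113 by edgeR) when cSCC 19 was left out. Itga5, the fibronectin receptor chain, was 3.76 ± 2.14 CPM in NS and 6.95, 21.5, 9.10 and 52.3 in cSCC 18 to 21. Only cSCC 18 lay within the NS range, which reached 7.46 CPM, but the values of cSCC 18 and 20 rested on only 10 and 8 counts. The log2 fold change of 2.68 (SE 0.58, adjusted p = 0.00767 by edgeR) became 1.81 (adjusted p = 0.0532) without cSCC 21, the library with the heart markers. The summed endothelial markers were also higher in cSCC, at 127 to 698 CPM against 31.0 to 111 in NS, with the highest sum in cSCC 21. Inside groups the orders matched only in part. AK 16 had the highest AK sum, 106 CPM, and the highest AK Itga5, 17.98 CPM, and cSCC 18 had the lowest cSCC value of both. By contrast, NS 9 had the highest NS sum but the lowest Itga5, 0.638 CPM. In cSCC 20 the sum was 220 CPM, above the 133 of cSCC 19, while Itga5 was lower. The part of these markers in the result was not tested.

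Itga3 was 11.9 ± 3.98 CPM in NS (SD, n = 8) and 20.8, 127, 20.5 and 22.2 CPM in cSCC 18 to 21. All 4 cSCC exceeded the highest NS of 16.3 CPM, yet cSCC 19 lay far above the other 3. The lowest cSCC value, in cSCC 20, rested on 18 counts and the highest NS, NS 6, on 29, so this narrow separation is uncertain. Its log2 fold change of 2.07 (SE 0.48, adjusted p = 0.00990 by edgeR) was 0.90 without cSCC 19 and no longer called (adjusted p = 0.112). Lama3 was 33.9 ± 20.3 CPM in NS and 115, 767, 101 and 36.6 in cSCC 18 to 21. Here cSCC 21 lay inside the NS range, and the log2 fold change fell from 2.96 (adjusted p = 0.00724 by edgeR) to 1.36 (adjusted p = 0.0701) without cSCC 19. Lamb3 was 43.8 ± 12.1 CPM in NS and 82.7, 594, 67.1 and 60.0 in cSCC 18 to 21. The first 3 of these libraries exceeded the highest NS of 64.2 CPM, and the log2 fold change was 2.24 (adjusted p = 0.00911 by edgeR), or 0.73 (adjusted p = 0.0870) without cSCC 19. The calls of Itga3, Lama3 and Lamb3 therefore needed cSCC 19, and without it 2 of the 9 genes, Itgb1 and Itga5, were called, against 15.6% of all genes in either direction. Without both cSCC 20 and 21, the libraries with lung and heart markers, 4 were called, against 12.2% of all genes in either direction. Itga5 was then not called (log2 fold change 1.97, adjusted p = 0.0672 by edgeR).

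Itga6 was 240.2 ± 109 CPM in NS (SD, n = 8) and 283, 898, 213 and 55.1 CPM in cSCC 18 to 21. The cSCC thus lay both above and below the NS range of 124 to 469 CPM, and the log2 fold change of 0.64 (adjusted p = 0.417 by edgeR) became -0.34 without cSCC 19. Itgb4 was 27.6 ± 12.1 CPM in NS and 25.7, 125, 20.5 and 23.0 in cSCC 18 to 21. Apart from cSCC 19 these values lay inside the NS range, with a log2 fold change of 0.88 (adjusted p = 0.207 by edgeR), and -0.20 without cSCC 19. Col17a1 was 391, 442, 122 and 64.7 CPM in cSCC 18 to 21 against 390.4 ± 139 in NS, with a log2 fold change of -0.57 (adjusted p = 0.418 by edgeR). Col7a1 was 41.7, 55.8, 23.9 and 4.47 CPM in the same order against 34.7 ± 15.99, with -0.10 (adjusted p = 0.918 by edgeR). For both collagens, and also for Itga6, Itgb4, Itgb1, Lama3 and Lamb3, the 2 cSCC libraries with low basal keratin were the lowest cSCC. Krt14 was 14100 and 13516 CPM in cSCC 18 and 19 but 4115 and 2917 in cSCC 20 and 21, and the part of this in the results was not tested. Without cSCC 20 and 21 the log2 fold changes were 0.12 for Col17a1 and 0.53 for Col7a1.

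Between cSCC and AK, 4 of the 9 genes were called, all higher in cSCC, where 16% of 12032 genes were called higher and 8.34% lower. These were Itga3 with a log2 fold change of 2.36 (SE 0.53, adjusted p = 0.00737 by edgeR), Lamb3 with 2.15 (0.57, 0.0156), Itga5 with 2.11 (0.65, 0.0298) and Lama3 with 2.05 (0.57, 0.0187). For Itga3 alone of the 9 did the groups not overlap, with 4.57 to 17.9 CPM in AK, as for 3.33% of all genes higher in cSCC. The lowest cSCC value here was again that of cSCC 20, with 18 counts. Itgb1 missed the call at 0.99 (SE 0.35, adjusted p = 0.0535 by edgeR), and Itgb4 at 1.28 (0.49, 0.0690). Itgb1 was called by DESeq2 (adjusted p = 0.0315), by limma voom (0.0488) and by edgeR without cSCC 20 and 21 (1.35, 0.0357). By edgeR it was not called with library size alone (0.169) or without cSCC 19 (0.64, 0.214). Itgb4 was called by edgeR without cSCC 20 (1.51, adjusted p = 0.0428) and without cSCC 20 and 21 (1.88, 0.0241), but was 0.21 without cSCC 19 (0.755). Without cSCC 19 only Itga5 of the 9 was called, at 2.15 (adjusted p = 0.0454 by edgeR), against 22.5% of all genes in either direction. Without cSCC 21 the value of Itga5 was 1.10 (adjusted p = 0.274 by edgeR), and it also missed the call without AK 10, 13, 14 or 17 (adjusted p from 0.0524 to 0.0653). With the GC offset 4 genes were called, Itgb1 (1.21, adjusted p = 0.0211) taking the place of Itga5 (1.28, adjusted p = 0.166). Between cSCC and NS the same 5 genes were called with the offset as without it.

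**Figure D4:**
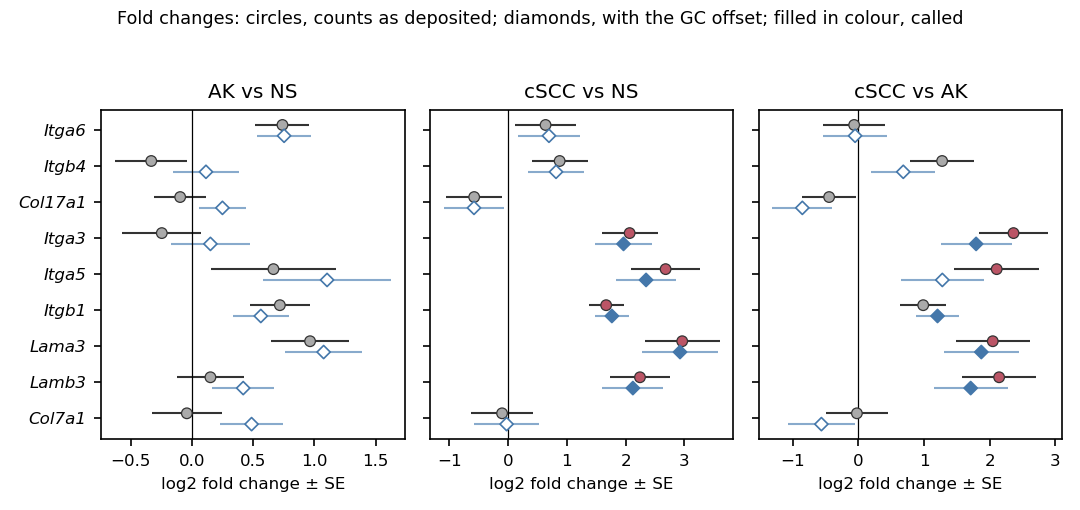
Log2 fold change ± SE (horizontal axis) of the 9 genes in each comparison, from the deposited counts (circles) and with the GC offset (diamonds), coloured where called. No gene is coloured in AK vs. NS, 5 are in cSCC vs. NS, and in cSCC vs. AK Itga5 is coloured only without the offset and Itgb1 only with it.

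Ratios inside libraries compared the collagens with the laminin and integrin chains in cSCC. On the log2 scale, Col7a1 to Lamb3 was -0.43 ± 0.48 in NS (SD, n = 8). It was -0.42 ± 0.43 in AK (n = 8) and -2.32 ± 1.30 in cSCC (n = 4). Every cSCC value, from -3.48 to -0.97, lay below every NS and AK, and the differences of -1.90 against NS and -1.91 against AK both had an adjusted exact permutation p = 0.0101. They held when any 1 cSCC was left out, at -1.51 to -2.35 against NS, although the margin to the lowest NS, -0.96, was small. With cSCC 20 and 21 both left out they were -1.75 and -1.76 (adjusted exact permutation p = 0.0952 for each), where 2 cSCC leave few splits. With the GC offset they were -1.88 and -2.15 (adjusted exact permutation p = 0.0202 for each). The highest cSCC, -1.01, then lay above the lowest NS, -1.08. The ratio of Col17a1 to Itgb4 was 3.78 ± 0.31 in NS and 3.88, 1.81, 2.51 and 1.45 in cSCC 18 to 21. It was lower in 3 of the 4 cSCC than in any NS, by -1.37 on average (adjusted exact permutation p = 0.0378), and cSCC 18 was not. Against AK the difference was -1.74 (adjusted exact permutation p = 0.0303). Both Col17a1 differences missed the threshold without cSCC 19, 20 or 21 (adjusted exact permutation p from 0.0606 to 0.109) and passed it without cSCC 18, and the one against NS also missed it without NS 1, 4 or 5 (0.0545). The ratio of Itga6 to Itgb4, raised in AK, was 3.41, 2.83, 3.31 and 1.22 in cSCC 18 to 21, within the NS range in 3 of 4, and lower than in AK by -1.60 (adjusted exact permutation p = 0.0173), or by -1.11 (0.112) without cSCC 21. With the GC offset this last difference was -0.90 (adjusted exact permutation p = 0.0808). Itgb1 against Krt14 was higher in cSCC than in AK by 1.25 (adjusted exact permutation p = 0.0441) and than in NS by 1.39 (0.0505). With the GC offset these were 2.06 (0.0202) and 1.68 (0.0303), and without cSCC 21 the difference from AK was 1.04 (adjusted exact permutation p = 0.112). It also missed the threshold without cSCC 20, without NS 1, 4 or 5, or without any 1 AK other than AK 16.

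Other hemidesmosome genes did not move as 1 block. Of the partners Cd151, Plec and Dst, 2 were called higher in cSCC than in NS and 1 lower. Cd151, a tetraspanin that binds α3β1 and α6β4, was 170.5 ± 110.1 CPM in cSCC (SD, n = 4) against 37.5 ± 11.6 in NS (n = 8). Its groups did not overlap, its log2 fold change was 2.26 (SE 0.35, adjusted p = 0.00167 by edgeR), and it was called in all 24 alternatives. Plec, the plectin that links β4 to keratin filaments, was called at 0.86 (adjusted p = 0.0498 by edgeR), and not without cSCC 19 (0.63, adjusted p = 0.178) or without any other single library except cSCC 18. Dst, which encodes the hemidesmosome plaque protein BPAG1 among other isoforms, was lower, at 75.4 ± 31.2 CPM in cSCC against 223 ± 84.0 in NS (log2 fold change -1.51, adjusted p = 0.0137 by edgeR). It was also lower than in AK, where all 4 cSCC lay below the lowest AK, as in 6.84% of all genes (log2 fold change -0.93, adjusted p = 0.0148 by edgeR). Without cSCC 20 and 21 the changes of Dst were -1.13 (adjusted p = 0.102 by edgeR) and -0.58 (0.0933).

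Among 18 other integrin chains tested between cSCC and NS, 2 were called higher and 2 lower, or 4 of 18 where 19.3% of all genes were called in either direction, with a median log2 fold change of 0.01 against 0.14 over all genes. The 2 lower ones were Itgb8, a chain that activates TGF-β, at 9.15 ± 7.87 CPM against 43.4 ± 19.7 (log2 fold change -2.33, adjusted p = 0.0231 by edgeR), and Itgae, the αE chain of resident T cells, at 3.39 ± 1.44 against 18.8 ± 6.40 (-2.51, adjusted p = 0.00407). In both, all 4 cSCC lay below the lowest NS, as in 5.73% of all genes, and Itgb8 missed the call without cSCC 19 (-2.07, adjusted p = 0.0634 by edgeR). Itga7, a muscle laminin receptor, was called higher at 3.76 but not without cSCC 21 (1.32, adjusted p = 0.269 by edgeR), the library with the heart markers, nor was the other, the collagen receptor chain Itga1 (2.58). Of 18 focal adhesion genes, which couple integrins to actin, 7 were called higher in cSCC than in NS and 0 lower, among them Pxn (paxillin, 1.95), Parva (α-parvin, 1.73) and Zyx (zyxin, 1.68), and the median was 1.46. Without cSCC 19 this count was 4, where 15.6% of all genes were called in either direction. Without cSCC 20 and 21 it was 4 higher and 1 lower, where 12.2% of all genes were called. Parva was called in all 24 alternatives. Against AK, 12 of 18 were called higher, where 16% of all genes were. Without cSCC 20 and 21 it was 7 higher and 1 lower, where 12.6% of all genes were called in either direction.

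In AK vs. NS, by contrast, 0 of 17 focal adhesion genes were called higher and 2 lower, Tln1 (talin, log2 fold change -1.01, adjusted p = 0.0239 by edgeR) and Tns1 (tensin, -0.99, adjusted p = 0.0151). For Tns1 all 8 AK lay below the lowest NS. With the GC offset the values were -0.70 and -0.69 (both adjusted p = 0.0625 by edgeR), and neither was called. Neither was called in the fit over all 20 samples, and Tln1 also missed the call without AK 13 or NS 4. None of 17 other integrin chains, 6 other laminin chains, 8 further basement membrane genes or 6 other integrin ligands was called in AK vs. NS by edgeR, where 2, 1, 2 and 1 of them had an unadjusted p-value under 0.05. Over all 11677 genes, 1798 had such a p-value with the fold change limit also applied. Of 6 proteases that process laminin-332 or the collagens, or shed collagen XVII, 1 was called, Adam10, at 0.60 (adjusted p = 0.0288 by edgeR), a fold change of 1.51 that lies just above the limit and was lost in 6 of 16 fits with a sample left out, and with the GC offset it was 0.37 (0.169).

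Other basement membrane genes were called mainly in cSCC vs. AK, where 5 of 6 other laminin chains were higher, led by Lamb2 (3.01) and Lama5 (1.99), and 4 of 9 basement membrane genes were higher and 1 lower. The 4 higher were Hspg2 (perlecan, 2.78), Col4a2 (2.59), Col4a1 (2.01) and Dag1 (dystroglycan, 1.55), and the lower one was Col4a6. Without cSCC 21 these counts were 1 of 6 and 0 of 9, where 14.7% of all genes were called in either direction. With the GC offset they were 2 of 6 higher, and 0 higher and 1 lower of 9, where 19.3% of all genes were called. Against NS, 1 of 7 other laminin chains (Lamb1, 1.14) and 1 of 11 basement membrane genes (Col4a1, 1.67) were called higher and Col4a6 lower. Lamb1 and Col4a1 each lost this call in 8 of 12 fits with a sample left out, among them those without cSCC 19 and without cSCC 21, and with the GC offset. Col4a6, a type IV collagen chain of epidermal basement membrane, was 7.59 ± 5.52 CPM in NS (SD, n = 8), 3.78 ± 2.16 in AK (n = 8) and 0.569 ± 1.14 in cSCC (n = 4), with adjusted p = 0.0140 against NS and 0.0391 against AK by edgeR. The call against AK was lost in 9 of 12 fits with a sample left out, and that against NS in none of its 12 but with limma voom (adjusted p = 0.168). The cSCC level is under the 3.41 CPM that 3 counts give in cSCC 20, so no fold is given. Postn, the ligand periostin, was lower in cSCC than in AK (-1.19, adjusted p = 0.0477 by edgeR), and not with the GC offset (-0.63, adjusted p = 0.228) or in 11 of 12 fits with a sample left out. Bmp1, a protease that processes laminin-332 and procollagen VII, was higher in cSCC than in AK (1.55, adjusted p = 0.0218 by edgeR) and not called against NS, nor against AK without cSCC 19, without cSCC 20 or with the GC offset. Of 7 ligands tested between cSCC and NS, only Vtn (vitronectin) was called, at 3.15 (adjusted p = 0.0414 by edgeR), and it was not called without cSCC 21 or with the GC offset.

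Within NS and AK, the 9 genes varied together to different degrees. Over 16 samples, after subtraction of each group's mean, the 36 pairs had a median Spearman rho of 0.54, ranging from -0.40 to 0.81, and 5 pairs were below 0. All genes of a library share its depth and tissue piece, so these values are a description. By the same measure over all genes tested, the gene most like Col17a1 was the basal keratin Krt5 (rho 0.95), and the gene most like Itgb1 was the collagen V chain Col5a1 (0.91). For Lama3 and Lamb3 they were Atf6b (0.91) and Coil (0.93), for Itga6 and Itgb4 Helb and Shmt2 (0.88 each), and for Itga3, Itga5 and Col7a1 Clptm1l, Pskh1 and Fam65a (0.83, 0.83 and 0.84). Each is the highest of many values over only 16 samples, so a high rho can come from this selection alone.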

How the data were processed

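RNA-seq of 20 mouse skin tissues was analysed. The authors deposited raw counts per gene symbol for 22090 genes, not normalized, with 1 column per sample. By the study's methods reads were trimmed with Trimmomatic, aligned to GRCm38 with HISAT2 and quantified with StringTie, while the submitters' processing notes list Trimmomatic 0.36, HISAT2 2.0.5 and featureCounts 1.5.2 and other builds. The strand setting is not given in the sources used here, so reads of Itgb4 and Lama3, whose exons overlap a gene on the opposite strand (537 and 197 bases), are less certain. Values for genes at low depth are limited: 3 counts are 3.78 CPM in AK 12 and 0.225 CPM in AK 10, and these floors cover counting error only. No 2 libraries of a group were the same (62 pairs, smallest chi-square per degree of freedom 12.3).

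CPM used TMM factors over the 20 samples. Each comparison used the samples of its own groups, filterByExpr and the quasi-likelihood test of edgeR 4.0.16 in R 4.3.3, with Benjamini-Hochberg adjustment over all genes tested. The standard error is the log2 fold change divided by the square root of F. Ratios of genes, log2 of (CPM + 1), were compared by two-sided exact permutation over samples (495 splits for 4 against 8, smallest p 0.00202). Gene lengths and overlaps are from GENCODE M21 and promoters from RefSeq, both on GRCm38. The GC offset, chosen after seeing the data, took a lowess trend of log counts on transcript GC from each library and entered edgeR as an offset, with a GC value for 96.2% of genes tested between AK and NS. Other alternatives were DESeq2 1.42.0, limma 3.58.1 voom with sample weights, other scalings and filters, a call without adjustment or without the fold change limit, all 20 samples in 1 fit, a pseudocount of 0.1, leaving out each sample, and, also added after seeing the data, leaving out haemoglobin genes. The scripts' tests were checked on simulated data.

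The 9 genes and all lists were chosen with earlier results of these data known. Named genes were the 9, their most alike gene, and up to 8 genes per list among those called in any comparison, by size of change. The markers of each cell type are given as summed CPM. 1 gene of the lists, with its ratio, is not reported here. The mouse behind each tissue is not labelled, so nothing was paired.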

Additional observations from a re-analysis of the deposited data

Results flagged for a closer look

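Of 57 sets of values examined (levels and ratios, in groups of 4 or 8 samples), 10 had a sample far from the others by Dixon's criterion. Independent, normally distributed values meet it in about 1 of 20 sets. The sets here share the same 20 libraries and levels were not put on a log scale, so that rate does not apply directly. In cSCC, replicate 19 stood above the other 3 for Itgb4 (125 CPM against a next value of 25.7), Itga3 (127 against 22.2), Lama3 (767 against 115) and Lamb3 (594 against 82.7). In AK, replicate 16 was highest for Itgb1 (622 CPM against 367) and for Itga5 (17.98 against 7.51). AK 12, the AK library with the fewest counts, had the highest log2 ratio of Itga6 to Itgb4 (6.10 against 4.61), the lowest of Itga5 to Itgb1 (-8.52 against -5.71, with Itga5 at 0 counts) and the lowest of Itgb4 to Krt14 (-10.5 against -9.12). In cSCC 21 the log2 ratio of Lamb3 to Lama3 was 0.70 against a next value of -0.37.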

How the results depend on the processing

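No paired analysis was possible because the groups share no replicate numbers in the labels. The number of the 9 genes called in AK vs. NS was 0 in most alternatives, 3 with DESeq2, with limma voom and at an unadjusted p-value, and 0 to 3 when a single sample was left out. In cSCC vs. NS it was 5, and 2 to 5 when a sample was left out, the lowest without cSCC 19. In cSCC vs. AK it was 4, 2 with limma voom, and 1 to 5 when a sample was left out, the lowest again without cSCC 19. Of 30 ratio tests 11 passed, 4 with cSCC 20 and 21 both left out, and 6 to 14 when a sample was left out. DESeq2 gave no adjusted p-value to 2 of the 9 genes, Itga3 and Lamb3, in cSCC vs. NS. In cSCC vs. AK it gave none to Itga3, Itgb4 and Lamb3, so its counts do not cover these genes. The cause of these changes was not tested, except that fewer cSCC leave fewer splits in a ratio test. All reversals were of values not called, other than Tns1 in cSCC vs. AK, called at 2.85 and at -1.49 without cSCC 20 and 21.
With the GC offset the reversed log2 values were 0.25 for Col17a1 in AK vs. NS, 0.49 for Col7a1 in AK vs. NS, 0.15 for Itga3 in AK vs. NS, 0.11 for Itgb4 in AK vs. NS, 0.19 for Itga5/Itgb1 in AK vs. NS, -0.0020 for Itga5/Itgb1 in cSCC vs. AK, -0.38 for Itgb1/Krt14 in AK vs. NS. With limma voom the reversed log2 values were 0.055 for Col7a1 in AK vs. NS, 0.016 for Col7a1 in cSCC vs. AK, 0.051 for Col7a1 in cSCC vs. NS. Without cSCC 20 and 21 the reversed log2 values were 0.25 for Col17a1 in cSCC vs. AK, 0.60 for Col7a1 in cSCC vs. AK, 0.63 for Itga6 in cSCC vs. AK, 0.12 for Col17a1 in cSCC vs. NS, 0.53 for Col7a1 in cSCC vs. NS, 0.11 for Itga3/Itgb1 in cSCC vs. NS, -0.024 for Itga5/Itgb1 in cSCC vs. AK, -0.36 for Itga5/Itgb1 in cSCC vs. NS, -0.21 for Itga5/Itgb4 in cSCC vs. AK, 0.052 for Itga6/Itgb4 in cSCC vs. NS, -0.041 for Itgb4/Krt14 in cSCC vs. NS. With DESeq2 the reversed log2 values were 0.0036 for Col7a1 in cSCC vs. AK. With at least 10 counts in every sample the reversed log2 values were 0.029 for Col7a1 in cSCC vs. AK, 0.016 for Itga6 in cSCC vs. AK. With upper quartile factors the reversed log2 values were 2.33e-05 for Col7a1 in cSCC vs. AK. Leaving out a single sample changed the sign of these values, with ranges of -0.21 to 0.023 for Col17a1 in AK vs. NS, -0.18 to 0.12 for Col7a1 in AK vs. NS, -0.032 to 0.26 for Lamb3 in AK vs. NS, -0.50 to 0.29 for Col7a1 in cSCC vs. AK, -1.06 to 0.21 for Itga6 in cSCC vs. AK, -0.56 to 0.29 for Col7a1 in cSCC vs. NS, -0.34 to 1.00 for Itga6 in cSCC vs. NS, -0.20 to 1.13 for Itgb4 in cSCC vs. NS, -0.080 to 0.11 for Col7a1/Lamb3 in AK vs. NS, -0.43 to 0.16 for Itga3/Itgb1 in cSCC vs. NS, -0.55 to 0.062 for Itga5/Itgb1 in AK vs. NS, -0.27 to 0.88 for Itga5/Itgb1 in cSCC vs. NS, -0.61 to 0.12 for Itga6/Itgb4 in cSCC vs. NS, -0.066 to 0.30 for Itgb1/Krt14 in AK vs. NS.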
